A study of Mus musculus with 24 samples.

Results

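Homozygous Setd2 null embryos were set directly against homozygous Setd2 catalytic dead (CD) embryos. The comparison holds every embryo library that its label places in one of these groups, which is 4 of the 24 libraries of the series, 2 null HO and 2 CD HO. The whole series covers mouse embryos and yolk sacs at embryonic day 9.5, in WT, HE (heterozygous) and HO (homozygous) animals of a Setd2 null line and a Setd2 CD line, all C57BL/6. RNA came from whole embryos through TRIzol, went into KAPA mRNA HyperPrep libraries and was read on an Illumina NovaSeq6000. The null HO group is homozygous for the null allele, the CD HO group is homozygous for the CD allele, and the null WT and CD WT groups (2 libraries each) are the wild type embryos of the same lines, shown beside them as the check on differences between lines. No source used here says how the null allele was built, which residue the CD allele changes or how often each line was crossed to C57BL/6. The title of the series says that a mutation found in a patient was put into mice.

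Setd2 is the methyltransferase that places the third methyl group on lysine 36 of histone H3 (H3K36me3) over the bodies of transcribed genes, where it travels with elongating RNA polymerase. The mark is read by proteins that act in splicing, DNA methylation, mismatch repair and the silencing of cryptic transcription. Mouse embryos without Setd2 are known to die at mid-gestation with defects of the blood vessels. A protein that is made but cannot methylate, set against no protein, separates what the enzyme does through methylation from what the rest of the protein might do, and that is the question that this comparison addresses. Neither the protein nor the histone mark was measured in these files.

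Libraries held 23414255 to 26310857 counts in the 4 homozygous embryos and 24574487 to 25938731 in the 4 WT embryos. Levels are CPM, counts scaled to a common library size by TMM, and differences are log2 values, null minus CD, with a standard error (SE) from a fit of all 12 embryo libraries. A gene is called where its adjusted p from the edgeR quasi-likelihood test, corrected over 19215 genes, is under 0.05. The labels do not say whether replicates came from separate animals or litters, so the p-values measure the spread between these libraries, which may be technical in part. The null HO libraries were not from the same animal, since replicate 1 held 53.7 CPM of the Y-linked Ddx3y and 3.2 CPM of Xist while replicate 2 held 0 and 1320 CPM. Both CD HO libraries were of the female pattern (Xist at 1508 and 1266 CPM, Ddx3y at 0), both null WT libraries were female (2118 and 2148 CPM of Xist) and both CD WT libraries were male (Ddx3y at 71.9 and 76.9 CPM). Sex therefore differs fully between the WT groups, where it cannot be told apart from line.

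The null HO libraries differed from each other by more than replicate 1 did from the CD HO libraries. Between null HO replicates 1 and 2 the median gene differed by 0.172 log2 and 261 genes differed by 2-fold or more. Null HO replicate 1 differed from CD HO replicates 1 and 2 by a median of 0.128 and 0.125 (117 and 121 genes of 2-fold or more), and null HO replicate 2 by 0.182 and 0.19 (209 and 249 genes). The CD HO libraries differed from each other by 0.112 (85 genes) and the null WT libraries by 0.103 (30 genes). Null HO replicate 2 stands apart, with globin transcripts at 0.00937% of its counts, against 0.128% in null HO replicate 1 and 0.0599% and 0.157% in the CD HO libraries. CD WT replicate 2 stands apart among the WT libraries, with the visceral endoderm transcript Apob at 347 CPM, against 15.8 to 39.5 CPM in the other 3. Counts and list medians without null HO replicate 1 or 2, and WT counts without CD WT replicate 1 or 2, are given beside the results.

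Few genes separated the homozygotes. Of 19215 genes tested, 18 were called between null HO and CD HO embryos, which is 0.0937% of all genes, with 8 higher in null HO (0.0416%) and 10 lower (0.052%). A change of 1 log2 unit or more was called for 11 genes (0.0572%). Set beside this, null HO embryos differed from null WT in 3120 higher and 3168 lower genes (16.2% and 16.5%), and CD HO embryos from CD WT in 1330 higher and 1757 lower genes (6.92% and 9.14%). With each of their libraries left out in turn, a check chosen after seeing the data, the null counts ran over 1659 to 2975 higher and 1987 to 3323 lower, and the CD counts over 449 to 1216 higher and 823 to 1750 lower. The lowest counts came with 1 WT library left out in the null line and with 1 CD HO library left out in the CD line. For 14008 genes (72.9%) the 95% interval of the direct difference lay wholly within 1 log2 unit of 0, and among 9674 genes with a mean of 10 CPM or more this held for 99%. The median half-width of this interval, which is not adjusted for the number of genes, was 0.338 log2 units. A call needs an adjusted p under 0.05. Differences below this half-width, and some above it, could therefore not be called for the median gene at this number of libraries. At an unadjusted p under 0.05 there were 2340 genes (12.2%).

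The number of calls depends on 1 library. Without null HO replicate 1, so that replicate 2 alone stands for the null and is assumed to vary like the other groups, 1449 of 20107 genes were called (7.21%), 582 higher (2.89%) and 867 lower (4.31%). Without null HO replicate 2 the count was 31 of 20123 (0.154%), 19 higher (0.0944%) and 12 lower (0.0596%). DESeq2 on the same filtered counts called 81 genes, 31 higher and 50 lower, and edgeR without a filter on low counts called 529. Rpl29, Gm8210, Gm10709, Gm13456, Setd2, Gm11942 and Trp53inp1 (7 genes) were called under each of the 11 alternatives set up for this comparison. Gm11868 was called under 10 and missed in a fit of the 4 compared libraries alone (adjusted p = 0.053). That fit kept 8 of the 18 calls and also missed Amd2, Cyb5r4, Lsmem2, Ppm1m, Entpd4b, Gm16286, Ccnl2, Mrpl3 and Gm6548. A fit with a sex term, run because the null HO libraries differ in sex pattern, called 20 genes, of which 12 were among the 18. It missed Ccnl2 (adjusted p = 0.103), Entpd4b (0.0707), Gm16286 (0.0654), Gm49759 (0.0547), Gm6548 (0.0634) and Mrpl3 (0.0824). DESeq2 gave no adjusted p for Lsmem2 and Entpd4b and called the other 16.

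**Figure D1:**
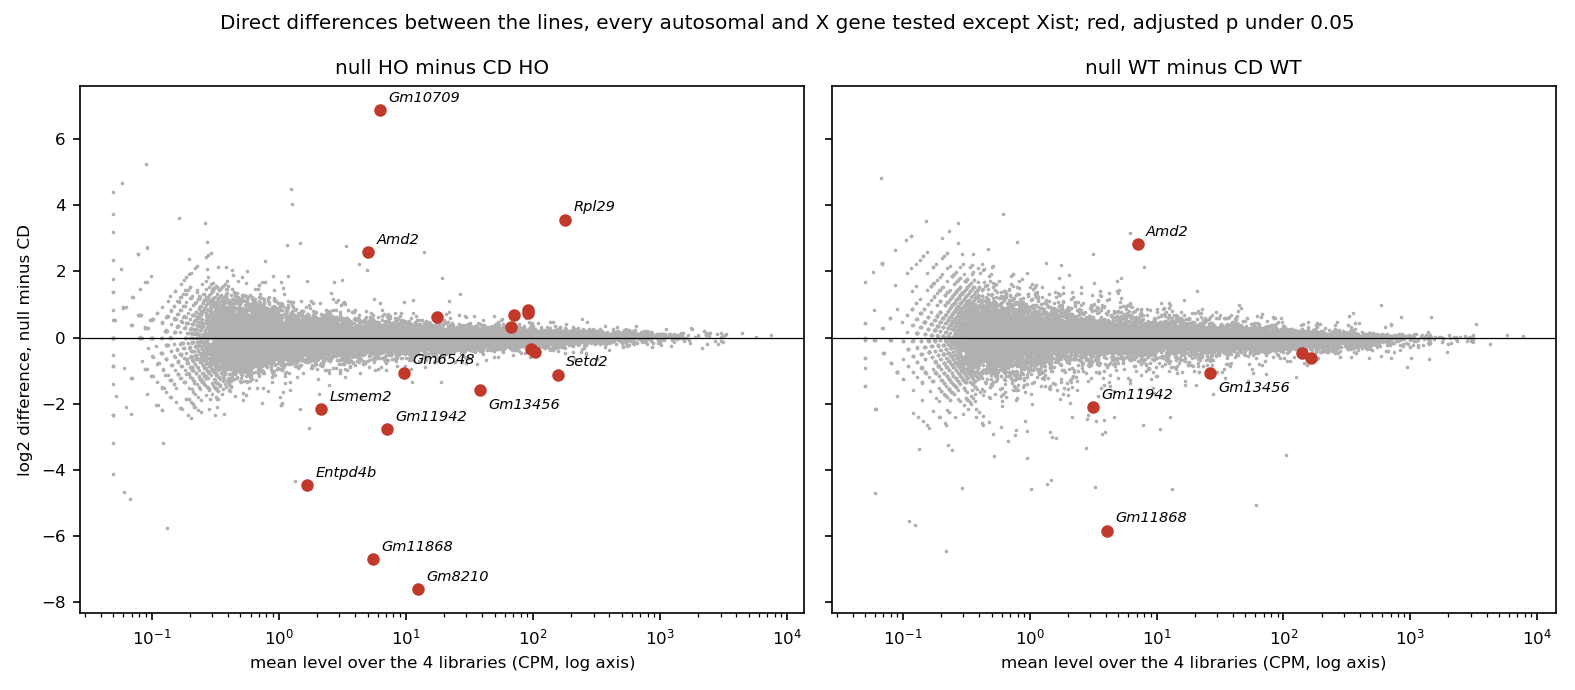
Each dot is a gene, with its mean level over the 4 libraries compared (CPM, log axis) against its log2 difference, null minus CD, between homozygotes (left) and between WT embryos (right). Y-linked genes and Xist are not drawn. Red dots are called at adjusted p under 0.05, with names at 1 log2 unit or more: 18 genes stand out among homozygotes and 6 among WT embryos, and most genes of 10 CPM or more lie close to 0 in both panels.

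Setd2 itself was lower in the null homozygotes. Its transcript (ENSMUSG00000044791, mm10 chromosome 9, 110532597 to 110618633, plus strand) stood at 93.3 and 104 CPM in null HO embryos, against 218 and 213 CPM in CD HO embryos, 232 and 229 CPM in null WT and 224 and 255 CPM in CD WT. The groups do not overlap, and CD HO lay just below the WT libraries. The direct difference was -1.13 log2 (SE 0.07, 95% interval -1.28 to -0.97, edgeR adjusted p = 5.77e-06), while null WT and CD WT differed by -0.05 (SE 0.069, adjusted p = 0.798). The HE embryos held 169 and 157 CPM in the null line and 222 and 231 CPM in the CD line, which put the null HE mean 51.4% of the way from WT to HO. Counts outside the part that the null allele lacks would still be summed into this value, and no source used here describes that part. A single annotated gene, Gm42763, overlaps Setd2 on the same strand.

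None of the other genes of the H3K36 pathway was called. The list of H3K36 methylation factors held 29 genes, and all were tested. Setd2 was its 1 called member, 5 members including Setd2 had an unadjusted p under 0.05, DESeq2 called 0 higher and 1 lower, and the median difference was 0.02, against -0.00 over all genes tested. The next smallest p belonged to Morf4l1, a chromodomain protein that binds H3K36me3, at 359 and 381 CPM in null HO embryos and 329 and 293 CPM in CD HO embryos (0.25, SE 0.06, adjusted p = 0.228). Summed over the list, the libraries held 5668 and 5741 CPM in null HO and 5720 and 5678 CPM in CD HO. The list had 3 members called higher and 1 lower without null HO replicate 1, and 0 and 1 without replicate 2.

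The strongest difference was at Rpl29, which encodes a protein of the large ribosomal subunit and starts at -4.1 Mb from the start of Setd2 on chromosome 9. Rpl29 (ENSMUSG00000048758, mm10 chromosome 9, 106429454 to 106431568) held 362 and 303 CPM in null HO embryos, against 30 and 26 CPM in CD HO embryos. In WT embryos it held 315 and 304 CPM in the null line and 309 and 301 CPM in the CD line. The CD HO libraries are the low ones, and null HO replicate 2 lies among the WT values with replicate 1 above them. The direct difference was 3.57 (SE 0.09, 95% interval 3.37 to 3.76, edgeR adjusted p = 5.72e-10), against 0.02 (SE 0.079, adjusted p = 0.943) between the WT groups. CD HE embryos held 166 and 156 CPM, 52.1% of the way from the CD WT mean to the CD HO mean, and null HE embryos held 319 and 319 CPM.

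Both of the next transcripts by p, after Rpl29, are processed pseudogenes that copy it. Gm8210 (chromosome 1, 43189156 to 43189638) held 0.0771 and 0.168 CPM in null HO embryos, against 24.5 and 25 CPM in CD HO embryos, and 0.038 to 0.27 CPM in the 4 WT libraries. Gm10709 (chromosome 9, 7751725 to 7752204) held 15 and 9.94 CPM in null HO embryos, against 0.153 and 0.0429 CPM in CD HO embryos, 13.3 and 12.9 CPM in null WT and 11.4 and 11.2 CPM in CD WT. So CD HO libraries were high for Gm8210, and low for Gm10709 and Rpl29. The differences were -7.62 (SE 0.35, adjusted p = 3.51e-07) for Gm8210 and 6.88 (SE 0.34, adjusted p = 6.01e-07) for Gm10709, where the counts behind the low groups were 2 and 4 reads for Gm8210 in null HO and 4 and 1 reads for Gm10709 in CD HO, so that these fitted values depend on few reads. CD HE embryos lay between, at 11.5 and 12.4 CPM for Gm8210 (48.1% of the way from WT to HO) and 6.21 and 6.76 CPM for Gm10709 (43%).

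The sequences show how close these genes are. Over the Rpl29 coding sequence of 483 bases, Gm8210 differs at 3 positions (99.4% identity) and Gm10709 at 4 (99.2%), as GENCODE M21 gives them on GRCm38 (mm10). Counted from 1 at the A of the ATG, with the Rpl29 base first, the changes are C72A, C300T and T423C in Gm8210 and G205A, C300T, T423C and G457A in Gm10709. The shown stretch runs from position 181 to position 480, which holds all of them but C72A. All are on the plus strand, Rpl29 at chr9:106429454-106431568 (the whole gene), Gm8210 at chr1:43189156-43189638 and Gm10709 at chr9:7751725-7752204. Capitals mark the positions at which either copy differs from Rpl29 in the first line, and the copy's own differing bases in the others.
Rpl29: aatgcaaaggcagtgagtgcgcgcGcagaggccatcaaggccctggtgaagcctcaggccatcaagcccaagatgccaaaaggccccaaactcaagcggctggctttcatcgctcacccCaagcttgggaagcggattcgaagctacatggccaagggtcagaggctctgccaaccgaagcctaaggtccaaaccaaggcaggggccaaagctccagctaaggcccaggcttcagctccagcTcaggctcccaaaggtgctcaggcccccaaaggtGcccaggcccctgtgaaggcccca
Gm8210: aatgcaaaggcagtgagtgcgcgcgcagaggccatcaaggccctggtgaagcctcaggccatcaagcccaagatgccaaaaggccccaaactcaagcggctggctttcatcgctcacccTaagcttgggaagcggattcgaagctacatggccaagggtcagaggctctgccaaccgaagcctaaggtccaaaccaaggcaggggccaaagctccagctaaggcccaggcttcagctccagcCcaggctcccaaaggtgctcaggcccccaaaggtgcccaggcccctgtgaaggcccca
Gm10709: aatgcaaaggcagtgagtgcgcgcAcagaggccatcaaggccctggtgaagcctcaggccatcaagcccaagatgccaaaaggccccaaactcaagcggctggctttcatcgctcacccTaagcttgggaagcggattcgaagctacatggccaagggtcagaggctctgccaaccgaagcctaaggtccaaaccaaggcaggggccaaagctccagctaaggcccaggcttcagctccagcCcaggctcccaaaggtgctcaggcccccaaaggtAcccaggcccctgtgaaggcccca

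Within the coding sequence, a read that spans none of those positions is the same in all 3 genes, and no source used here says how reads with several matches were counted, so counts can pass between the copies. A further copy, Gm13841 on chromosome 5, is identical to Gm8210 over all 483 bases, so no position there separates them. It held 5.9 and 6.21 CPM in null HO, 12.3 and 9.56 CPM in CD HO and 4.75 to 5.66 CPM in the WT libraries (-0.85, edgeR adjusted p = 0.129). Summing over copies does not remove the difference. Rpl29 and 29 annotated copies (at least 95% identity over at least 80% of the shorter transcript and at least 300 bases) held together 385 and 321 CPM in null HO embryos, against 69 and 62.9 CPM in CD HO embryos. The same sum was 336 and 324 CPM in null WT, 329 and 319 CPM in CD WT, and 195 and 184 CPM in CD HE. The copies alone held 23.2 and 18.4 CPM in null HO and 39 and 36.9 CPM in CD HO. Whether reads of the CD allele's chromosome went unaligned or to an unlisted copy was not tested.

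**Figure D2:**
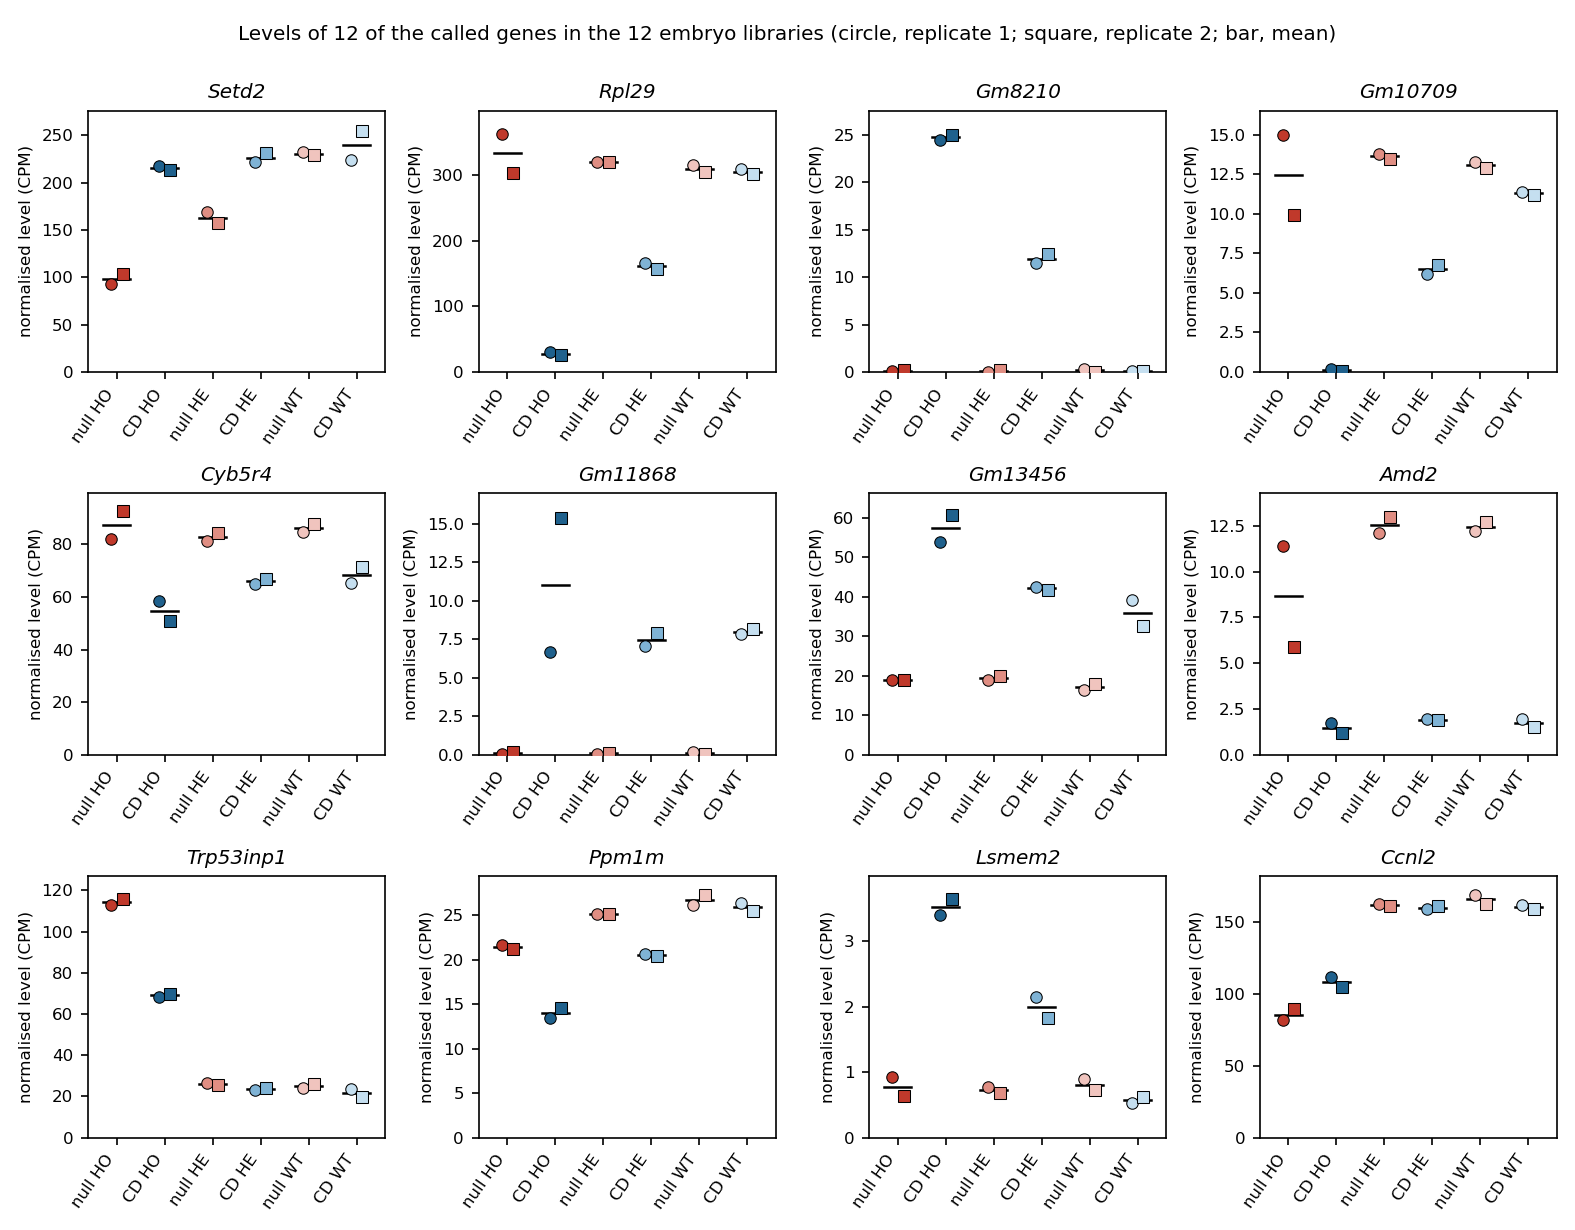
Levels (CPM, linear axes from 0) of 12 of the 18 called genes in each embryo library, by group, with the mean as a bar. Rpl29, Gm8210, Gm10709 and Lsmem2 stand apart in CD HO with CD HE between, Setd2 in null HO with null HE between, Gm11868, Gm13456 and Amd2 differ between the lines in every genotype, and Trp53inp1 is high in both homozygotes and highest in null HO.

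Other called genes also belong to families of near-identical copies. Among the 18 calls, 6 were processed pseudogenes, 0.528% of the 1136 tested, against 0.067% of the 14928 protein-coding genes (10 calls). Gm11868 (chromosome 4, 18844202 to 18845679) is 98% identical to Cyb5r4, a cytochrome b5 reductase gene on chromosome 9. It held 0.0386 and 0.168 CPM in null HO embryos, against 6.7 and 15.4 CPM in CD HO embryos (-6.71, SE 0.56, adjusted p = 0.000127). The lines differed in the same way in WT embryos, at 0.193 and 0.076 CPM in null WT and 7.83 and 8.16 CPM in CD WT (-5.85, adjusted p = 0.00151). Cyb5r4 itself moved the other way, at 81.9 and 92.6 CPM in null HO and 58.6 and 51 CPM in CD HO (0.67, SE 0.079, adjusted p = 0.00357), with 84.9 and 87.8 CPM in null WT and 65.5 and 71.6 CPM in CD WT (0.33, adjusted p = 0.108). The Cyb5r4 call was lost without CD HO replicate 2 (adjusted p = 0.0636) and with the compared libraries only (0.399).

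Gm13456 (chromosome 2) and Gm6548 (chromosome 17) are 98.6% and 96.7% identical to Eef1a1, the gene of the translation elongation factor eEF1A1. Gm13456 held 18.9 and 18.9 CPM in null HO embryos and 53.9 and 60.8 CPM in CD HO embryos (-1.60, SE 0.1, adjusted p = 5.77e-06), and 16.4 and 17.8 CPM in null WT and 39.2 and 32.7 CPM in CD WT (-1.08, adjusted p = 0.00151). Gm6548 held 6.86 and 5.75 CPM in null HO and 10.8 and 15.6 CPM in CD HO (-1.06, SE 0.17, adjusted p = 0.0462), a call lost without null HO replicate 2 (0.143), without CD HO replicate 2 (0.316) and with the sex term. Eef1a1 was not called, at 7729 and 7776 CPM in null HO and 7302 and 7261 CPM in CD HO (0.09, adjusted p = 0.396). Gm11942 (chromosome 4), 97.4% identical to the ribosomal stalk gene Rplp1, held 1.73 and 1.89 CPM in null HO and 11 and 13.8 CPM in CD HO (-2.77, SE 0.25, adjusted p = 0.000227), and was called between the WT groups too (1.27 and 1.1 CPM in null WT, 4.98 and 5.33 CPM in CD WT).

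Amd2 and Entpd4b are protein-coding genes with a near-identical partner. Amd2 (chromosome 10), a copy of the S-adenosylmethionine decarboxylase gene Amd1 at 99.6% identity, held 11.4 and 5.91 CPM in null HO embryos, against 1.72 and 1.16 CPM in CD HO embryos (2.58, SE 0.29, adjusted p = 0.00274). It was as far apart between WT embryos, at 12.2 and 12.7 CPM in null WT and 1.97 and 1.54 CPM in CD WT (2.82, adjusted p = 0.00202), and Amd1 was not called (0.11, adjusted p = 0.482). Entpd4b (chromosome 14), a nucleoside diphosphatase gene whose transcript is identical to that of Entpd4 over 3589 bases, held 0.116 and 0.168 CPM in null HO and 4.33 and 2.1 CPM in CD HO (-4.47, SE 0.67, adjusted p = 0.0303), with 0.193 and 0.114 CPM in null WT and 0.522 and 0.0416 CPM in CD WT. Entpd4 had 0 counts in all 4 homozygous libraries. The Entpd4b call was lost without null HO replicate 2 (adjusted p = 0.0916), without CD HO replicate 1 (0.345), with the compared libraries only (0.159) and with the sex term (0.0707). The Amd2 call was lost without CD HO replicate 2 (0.0506) and with the compared libraries only (0.358).

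Position on the genome was uneven. Chromosome 9, which carries Setd2, held 8 of the 18 calls, 0.74% of its 1081 tested genes, against 0.0937% of all genes. No other chromosome held more than 4 (chromosome 4, 0.346% of 1157, with Gm11868 and Gm11942 among them). The 6 called processed pseudogenes were matched above to Rpl29, Cyb5r4, Eef1a1 and Rplp1. All of these coding genes lie on chromosome 9, with Eef1a1 at -32.1 Mb and Rplp1 at -48.6 Mb from Setd2. Whether reads of these genes link the pseudogene calls on other chromosomes to chromosome 9 was not tested. Besides Setd2, Rpl29, Gm10709 and Cyb5r4, the chromosome 9 calls were Ppm1m, Mrpl3, Lsmem2 and Gm49759. These 8 are not independent, since they include the targeted gene itself and both Rpl29 and its near-identical copy Gm10709. The 204 other tested protein-coding genes that start within 10 Mb of Setd2 had a median difference of -0.05. This list leaves out Setd2 itself and Lsmem2, which is not annotated as protein-coding, and both were called lower. Of the 204 genes, 3 were called higher (Rpl29, Ppm1m, Mrpl3) and 0 lower (0.0416% and 0.052% of all genes). DESeq2 called 5 higher and 3 lower. There were 11 higher and 14 lower of 206 without null HO replicate 1, and 4 and 0 of 207 without replicate 2.

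Ppm1m, a protein phosphatase gene, held 21.6 and 21.2 CPM in null HO embryos, against 13.4 and 14.6 CPM in CD HO embryos (0.62, SE 0.087, adjusted p = 0.0177), with 26.2 and 27.3 CPM in null WT and 26.4 and 25.5 CPM in CD WT. CD HE lay 45.4% of the way from CD WT to CD HO, at 20.6 and 20.4 CPM. Lsmem2, annotated in GENCODE M21 as a lincRNA locus, held 0.925 and 0.629 CPM in null HO, against 3.41 and 3.65 CPM in CD HO (-2.17, SE 0.26, adjusted p = 0.00392), and 0.522 to 0.888 CPM in the 4 WT libraries. In CD HE it held 2.15 and 1.83 CPM, 48% of the way. The Lsmem2 call was lost with the compared libraries only (adjusted p = 0.208). Mrpl3, of the mitochondrial ribosome, held 75 and 75.7 CPM in null HO and 60.1 and 60.5 CPM in CD HO (0.32, SE 0.051, adjusted p = 0.04). Gm49759, a predicted transcript that overlaps the pyruvate kinase gene Pkm on the same strand, held 122 and 112 CPM in null HO and 65.7 and 65.4 CPM in CD HO (0.83, SE 0.12, adjusted p = 0.0199). The Ppm1m, Mrpl3 and Gm49759 calls were lost without CD HO replicate 1 (adjusted p = 0.284, 0.43 and 0.266) and without CD HO replicate 2 (0.0605, 0.309 and 0.212), and Mrpl3 also without null HO replicate 2 (0.0917). The Ppm1m and Mrpl3 calls were also lost with the compared libraries only, and those of Mrpl3 and Gm49759 with the sex term.

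**Figure D3:**
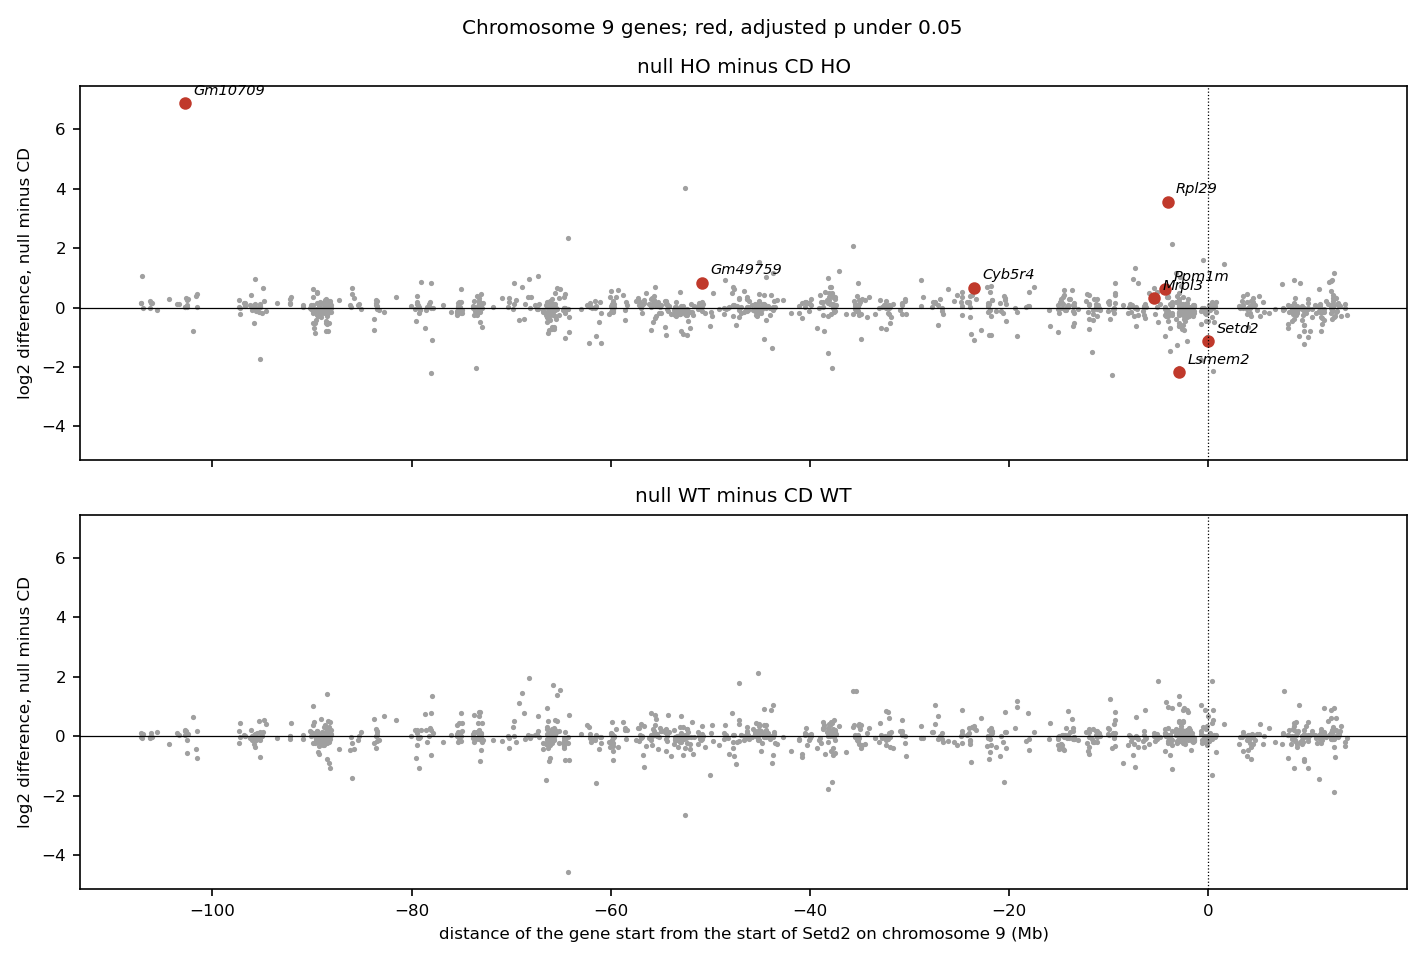
Log2 differences, null minus CD, of the tested genes of chromosome 9 against the distance of their start from that of Setd2 (Mb), in homozygotes (top) and in WT embryos (bottom). The 8 called genes, in red, include 5 that start within 10 Mb of Setd2 counting Setd2 itself, and no chromosome 9 gene is called between the WT groups.

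Trp53inp1 was the called gene of smallest p that has no near copy among the annotated transcripts and does not lie on chromosome 9. It encodes a stress-induced partner of the tumour suppressor p53. It held 113 and 116 CPM in null HO embryos, against 68.4 and 69.6 CPM in CD HO embryos, and 24.2 and 25.9 CPM in null WT and 23.4 and 19.7 CPM in CD WT. Both homozygous groups were above all WT libraries, and the null HO group was higher than the CD HO group by 0.73 (SE 0.077, 95% interval 0.56 to 0.90, adjusted p = 0.00139). The WT groups differed by 0.22 (adjusted p = 0.264), and the difference of the homozygous effects was 0.51 (adjusted p = 0.157). HE embryos lay at 26.4 and 25.3 CPM in the null line and 23 and 24 CPM in the CD line, near the WT values.

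Among p53 targets as a list, Trp53inp1 was the 1 call and the median was above 0. Of 39 tested members 1 was called higher and 0 lower (0.0416% and 0.052% of all genes), the median difference was 0.25, and 19 had an unadjusted p under 0.05, all of them with a positive difference. DESeq2 called 4 higher. Both null HO libraries lay above both CD HO libraries for 19 members and below for 3. Over all genes tested, the libraries did not overlap with null HO above for 20.4% and below for 19.8%. Mdm2, the ubiquitin ligase that degrades p53, held 125 and 104 CPM in null HO and 82.4 and 85.3 CPM in CD HO (0.45, SE 0.074, adjusted p = 0.0508), with 66.1 to 68.1 CPM in the WT libraries. The summed level was 2532 and 2076 CPM in null HO and 1890 and 1897 CPM in CD HO, against 1168 and 1163 CPM in null WT and 1157 and 1102 CPM in CD WT. Against their own WT, 27 members were higher and 2 lower in null HO, and 26 higher and 0 lower in CD HO. Of all genes, 16.2% were higher and 16.5% lower in null HO, and 6.92% higher and 9.14% lower in CD HO. Null HO replicate 1 is the high library: without it 3 members were called higher and 1 lower with a median of 0.11, and without null HO replicate 2 the calls were 6 higher and 0 lower with a median of 0.35.

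Ccnl2 and Gm16286 were the remaining calls. Ccnl2, a cyclin that works in splicing, held 81.6 and 89.2 CPM in null HO embryos and 112 and 105 CPM in CD HO embryos, against 169 and 163 CPM in null WT and 162 and 159 CPM in CD WT (-0.34, SE 0.054, adjusted p = 0.04). Both homozygous groups lay below the WT libraries, and null HO further. Gm16286, a predicted gene that overlaps the spliceosome gene Txnl4a on the same strand, held 92.5 and 84 CPM in null HO and 117 and 121 CPM in CD HO (-0.43, SE 0.066, adjusted p = 0.0334), with 107 to 115 CPM in the WT libraries. Both calls were lost without CD HO replicate 1 (adjusted p = 0.45 for Ccnl2 and 0.187 for Gm16286) and replicate 2 (0.0963 and 0.292), and Gm16286 also without null HO replicate 2 (0.1). Neither passed with the compared libraries only, with the replicate block or with the sex term.

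The WT embryos of the lines differed in 6 called genes of 19215 (0.0312%), 1 higher in null WT (0.0052%) and 5 lower (0.026%). Of these Gm11868, Gm13456, Gm11942 and Amd2 were called with the same sign between the homozygotes, 4 of the 6 WT calls and 4 of the 18 homozygous calls. The others were Greb1, an oestrogen-responsive gene, at 133 and 126 CPM in null WT and 182 and 218 CPM in CD WT (-0.63, adjusted p = 0.0151), and Igf2, an imprinted growth factor, at 120 and 118 CPM in null WT and 158 and 169 CPM in CD WT (-0.46, adjusted p = 0.0151). Between homozygotes Greb1 differed by -0.01 (95% interval -0.18 to 0.16) and Igf2 by -0.14 (-0.27 to -0.01, adjusted p = 0.38). Without CD WT replicate 1, which leaves the library that stands apart as the CD WT group, 1623 genes were called between the WT groups, and without CD WT replicate 2 there were 5. DESeq2 called 382.

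Fewer genes passed a test that takes each line's own WT into account. Its standard errors are larger, at 0.098 for Setd2 against 0.07 in the direct comparison. Missing this test therefore does not mark a gene as a difference between lines. Sex also differs between the WT groups that it uses. The difference between the homozygous effects, null minus CD, was called for 4 of 19215 genes (0.0208%), 2 higher and 2 lower (0.0104% each). Rpl29 (3.55, SE 0.12, adjusted p = 1.55e-08) and Gm10709 (6.67, adjusted p = 1.28e-05) were higher, and Setd2 (-1.08, SE 0.098, adjusted p = 0.000721) and Gm8210 (-8.18, adjusted p = 0.0265) were lower. Trp53inp1, Ppm1m and Lsmem2 did not pass it (0.51, 0.58 and -2.65, adjusted p = 0.157, 0.153 and 0.112). At an unadjusted p under 0.05 the difference of effects had 2580 genes (13.4%). Leaving out CD WT replicate 1 gave 1048 genes, leaving out CD WT replicate 2 gave 5, leaving out null HO replicate 1 gave 1003 and leaving out null HO replicate 2 gave 15, and DESeq2 called 192.

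Few members of the gene lists were called. Outside the lists of H3K36 factors, p53 targets, ribosomal proteins and genes near Setd2, edgeR called 0 members of the lists between null HO and CD HO. The counts at an unadjusted p under 0.05 and by DESeq2 are given list by list. Over all 19215 genes tested, 12.2% had an unadjusted p under 0.05 and DESeq2 called 81. A list count near such a share does not set the list apart. The shares of all genes called without null HO replicate 1 or 2 are given with those counts above. In bulk tissue a lower level can mean fewer cells of a type or less RNA per cell, and these cannot be told apart. The plot of list medians by library gives each library against the mean of the 4 WT libraries. These are called library medians below. List medians between the WT groups include CD WT replicate 2, which stands apart, and were not taken without it.

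**Figure D4:**
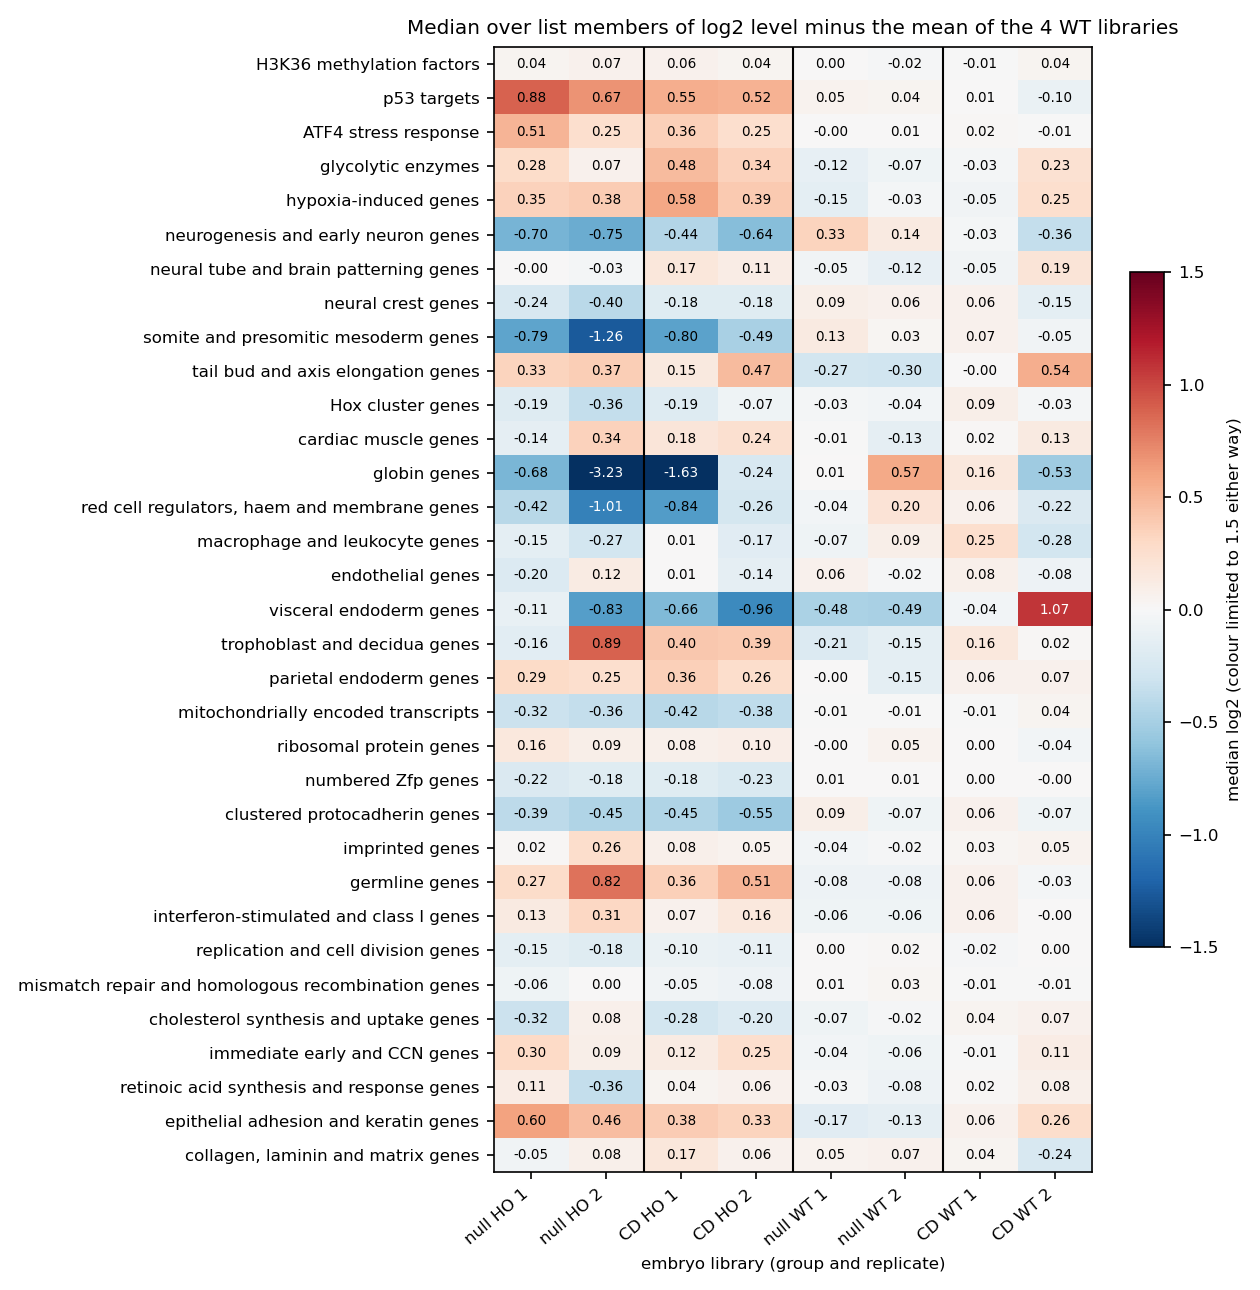
Median over the tested members of each list of the log2 level minus the mean of the 4 WT libraries (CPM plus 0.5), for the 8 homozygous and WT embryo libraries. p53 targets are at 0.88 and 0.67 in null HO and 0.55 and 0.52 in CD HO, somite genes at -0.79 and -1.26 in null HO and -0.80 and -0.49 in CD HO, and globin genes reach -3.23 in null HO replicate 2.

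Stress and energy lists had small medians. Genes of the ATF4 stress response (36 tested) had a median of 0.06, with 4 at an unadjusted p under 0.05 and 0 called by DESeq2. Slc7a11, the cystine transporter, held 16.3 and 12.4 CPM in null HO and 10.3 and 6.73 CPM in CD HO (0.75, adjusted p = 0.263). Glycolytic genes (22 tested) had a median of -0.22, with 9 at an unadjusted p under 0.05, 1 called lower by DESeq2 and both null HO libraries below both CD HO libraries for 12 (19.8% of all genes lay so). Gapdh held 233 and 197 CPM in null HO and 275 and 270 CPM in CD HO (-0.34, adjusted p = 0.139). Their median was -0.21 between the WT groups as well, with library medians of -0.12 and -0.07 in null WT and -0.03 and 0.23 in CD WT. Hypoxia-induced genes (25 tested) had a median of -0.09, with 4 at an unadjusted p under 0.05 and 1 called lower by DESeq2. Car12, a carbonic anhydrase, held 12.1 and 9.39 CPM in null HO and 21.3 and 33.5 CPM in CD HO (-1.35, SE 0.22, adjusted p = 0.0554), with 8.85 and 9.46 CPM in null WT and 15 and 19 CPM in CD WT. Glycolytic genes without null HO replicate 1 had 8 members called lower, hypoxia genes 1 lower and the ATF4 list 1 higher and 1 lower, and without replicate 2 all 3 lists had 0.

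In the nervous system, early neuron genes (39 tested) had a median of -0.23 between the homozygotes, with 6 at an unadjusted p under 0.05 and 0 by DESeq2. Between the WT groups the median was 0.44, with library medians of 0.33 and 0.14 in null WT and -0.03 and -0.36 in CD WT. The defining neuron markers Tubb3 (5.01 and 4.65 CPM in null HO, 6.51 and 5.96 CPM in CD HO, 29.4 and 26.9 CPM in null WT, 18.7 and 14.8 CPM in CD WT) and Elavl3 (0.27 and 0.671, 0.804 and 0.558, 7.76 and 6.54, 4.17 and 1.17 CPM in the same order of groups) were below all WT libraries in every homozygous library. Neural tube patterning genes (40 tested) had a median of -0.19, with 10 at an unadjusted p under 0.05 and 2 called lower by DESeq2. Pax6, a regulator of neural progenitors and the eye, held 25.5 and 22.2 CPM in null HO and 40.5 and 32.1 CPM in CD HO (-0.61, SE 0.1, adjusted p = 0.0603), with 49.2 to 51.8 CPM in the WT libraries. It passed without null HO replicate 1 (adjusted p = 0.00458) and without CD HO replicate 2 (0.0101). Neural crest genes (24 tested) had a median of -0.15, with 5 at an unadjusted p under 0.05 and 2 called lower by DESeq2. Among them Twist1 held 22.9 and 24.7 CPM in null HO and 32 and 34.1 CPM in CD HO (-0.47, adjusted p = 0.211), and 51.3 to 72.6 CPM in the WT libraries. Sox10 held 23.2 and 13.3 CPM in null HO and 30.2 and 31.5 CPM in CD HO (-0.75, adjusted p = 0.231). The neuron list without null HO replicate 1 had 1 member called higher and 3 lower, the neural tube list 0 and 9 (median -0.41) and the crest list 2 and 2, and without replicate 2 all 3 lists had 0.

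Among mesoderm and axis genes, none was called either. Somite and presomitic genes (25 tested) had a median of -0.34 (0.19 between the WT groups), with 8 at an unadjusted p under 0.05 and 1 called lower by DESeq2. Against WT, 18 of them were lower in null HO (16.5% of all genes were) and 11 in CD HO (9.14% of all genes were). Foxc2, a forkhead factor of paraxial mesoderm and vessels, held 16.9 and 9.1 CPM in null HO and 19.9 and 22.8 CPM in CD HO (-0.71, adjusted p = 0.27), and Meox1 held 19.2 and 8.26 CPM in null HO, 19.2 and 25.9 CPM in CD HO and 59.4 to 89 CPM in the WT libraries. Tail bud genes (21 tested) had a median of 0.00, with 1 at an unadjusted p under 0.05. Hox cluster genes (35 tested) had a median of -0.05, with 4, and DESeq2 called 0 in both lists. Between the WT groups these medians were -0.61 and -0.06. The tail bud library medians were -0.27 and -0.30 in null WT and -0.00 and 0.54 in CD WT. Retinoic acid genes (21 tested) had a median of -0.25, with 7 at an unadjusted p under 0.05 and 0 by DESeq2, and both null HO libraries below both CD HO libraries for 11 (19.8% of all genes lay so). Aldh1a2, which makes retinoic acid in trunk mesoderm, held 38.7 and 26.5 CPM in null HO and 42.5 and 63.4 CPM in CD HO (-0.69, adjusted p = 0.29). Without null HO replicate 1, 8 retinoic acid genes, 6 somite genes and 5 Hox genes were called lower, and 1 somite and 1 tail bud gene higher, and without replicate 2 these 4 lists had 0. The somite median was -0.56 without replicate 1 and -0.07 without replicate 2.

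Heart muscle genes (33 tested) had a median of -0.04, with 5 at an unadjusted p under 0.05 and 1 called lower by DESeq2. The natriuretic peptide genes had the smallest p of this list, Nppb at 0.424 and 0.461 CPM in null HO and 1.65 and 4.33 CPM in CD HO (-2.73, SE 0.52, adjusted p = 0.11, from 11 and 11 reads in null HO), and Nppa at 0.193 and 0.294 CPM in null HO and 0.689 and 0.901 CPM in CD HO (-1.69, adjusted p = 0.255). The sarcomere markers Myl7 (95.2 and 132 CPM in null HO, 116 and 116 CPM in CD HO) and Tnnt2 (128 and 203 CPM in null HO, 147 and 157 CPM in CD HO) overlapped. Endothelial genes (40 tested) had a median of -0.01, with 6 at an unadjusted p under 0.05 and 1 called lower by DESeq2. Kdr, the main VEGF receptor of vessels, held 126 and 223 CPM in null HO and 155 and 152 CPM in CD HO, and Apln, a ligand made by growing vessel tips, 15.9 and 12.2 CPM in null HO and 20.9 and 22.7 CPM in CD HO (-0.63, adjusted p = 0.231). Here too the null HO libraries lay on both sides of the CD HO libraries for Myl7, Tnnt2 and Kdr. The heart calls without null HO replicate 1 were 7 higher and 1 lower (median 0.11), and without replicate 2, 0 higher and 1 lower (median -0.28). For endothelial genes the calls were 5 higher and 2 lower (median 0.08) without replicate 1, and 0 (median -0.14) without replicate 2.

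Red cell transcripts varied widely within the homozygous groups. The embryonic globin Hbb-bh1 held 471 and 32 CPM in null HO and 220 and 548 CPM in CD HO, against 642 and 956 CPM in null WT and 751 and 471 CPM in CD WT. Hbb-y and Hba-x followed it, at 307 and 28.5 and at 472 and 27.5 CPM in null HO, against 144 and 382 and 210 and 579 CPM in CD HO. The 9 tested globin genes had a median of -0.66 (0.62 between the WT groups). The 33 tested red cell regulators had one of -0.22 (0.14 between the WT groups). In these lists 0 and 1 members had an unadjusted p under 0.05, and DESeq2 called 0 in both. The 2 medians without null HO replicate 1 were -3.40 and -0.59, with 5 of 9 and 13 of 33 members called lower, and without replicate 2 they were 0.22 and 0.12, with 0 called. Leukocyte genes were near the limit, with 7 of 20 tested (median 0.12, 1 at an unadjusted p under 0.05, 0 by DESeq2) and the defining Ptprc and Cx3cr1 at 0.0429 CPM or less in all 4 homozygous libraries. The leukocyte median was -0.34 with 1 called higher without null HO replicate 1, and -0.01 with 0 without replicate 2.

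Markers of extraembryonic tissue marked single libraries. Of the trophoblast and decidua list 18 of 35 were tested, with a median of 0.19 (-0.77 between the WT groups), 5 at an unadjusted p under 0.05 and 0 called by DESeq2. Its summed level was 1766 and 2520 CPM in null HO, against 1779 and 1764 CPM in CD HO and 1096 to 1446 CPM in the WT libraries. Prl3d1, a placental lactogen of giant cells, held 0.0386 and 11.9 CPM in null HO and 1.07 and 0.643 CPM in CD HO. Prl2c2 held 0.0386 and 5.12 CPM in null HO and 0.268 and 0.429 CPM in CD HO, while Tpbpa was at 0 in all libraries. Null HO replicate 2 is therefore the high library for Prl3d1 and Prl2c2, and replicate 1 is below both CD HO libraries. Without null HO replicate 1, 10 of 21 members were called higher (median 1.13), and without replicate 2, 0 of 19 (median -0.31). The part of this tissue in the other differences of null HO replicate 2 was not tested.

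Visceral endoderm genes (35 tested) had a median of 0.55 between the homozygotes and -1.27 between the WT groups. Of these genes, 2 had an unadjusted p under 0.05 between the homozygotes and DESeq2 called 0. Both null HO libraries lay above both CD HO libraries for 13 (20.4% of all genes lay so). Apob, the apolipoprotein of lipid particles, held 38.2 and 9.48 CPM in null HO and 4.9 and 3 CPM in CD HO (2.59, SE 0.95, adjusted p = 0.343). Afp held 8.1 and 1.68 CPM in null HO and 2.22 and 0.643 CPM in CD HO. Null HO replicate 1 is high for Apob and Afp, the reverse of the trophoblast pattern. The summed level of the list was 833 and 793 CPM in null HO and 704 and 739 CPM in CD HO, against 460 and 471 CPM in null WT and 593 and 1591 CPM in CD WT. Gene by gene, CD HO had 1 member called higher and 19 lower than CD WT (median -1.95). Null HO had 9 higher and 3 lower than null WT (median 0.44). Of all genes, 6.92% were higher and 9.14% lower in CD HO, and 16.2% higher and 16.5% lower in null HO. The library medians were -0.48 and -0.49 in null WT and -0.04 and 1.07 in CD WT. They were -0.11 and -0.83 in null HO and -0.66 and -0.96 in CD HO. CD WT replicate 2 was the high library. The list values against CD WT include it and were not taken without it. The opposite medians therefore do not separate genotype from this library. Parietal endoderm genes (20 tested) had a median of 0.01, with 1 at an unadjusted p under 0.05 and 0 by DESeq2, and Lamb1, a laminin chain, held 447 and 460 CPM in null HO and 410 and 423 CPM in CD HO. The visceral endoderm median was 0.22 without null HO replicate 1 and without replicate 2 it was 0.99, with 0 called in both, and the parietal list had 3 members called lower without replicate 1 and 0 without replicate 2.

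**Figure D5:**
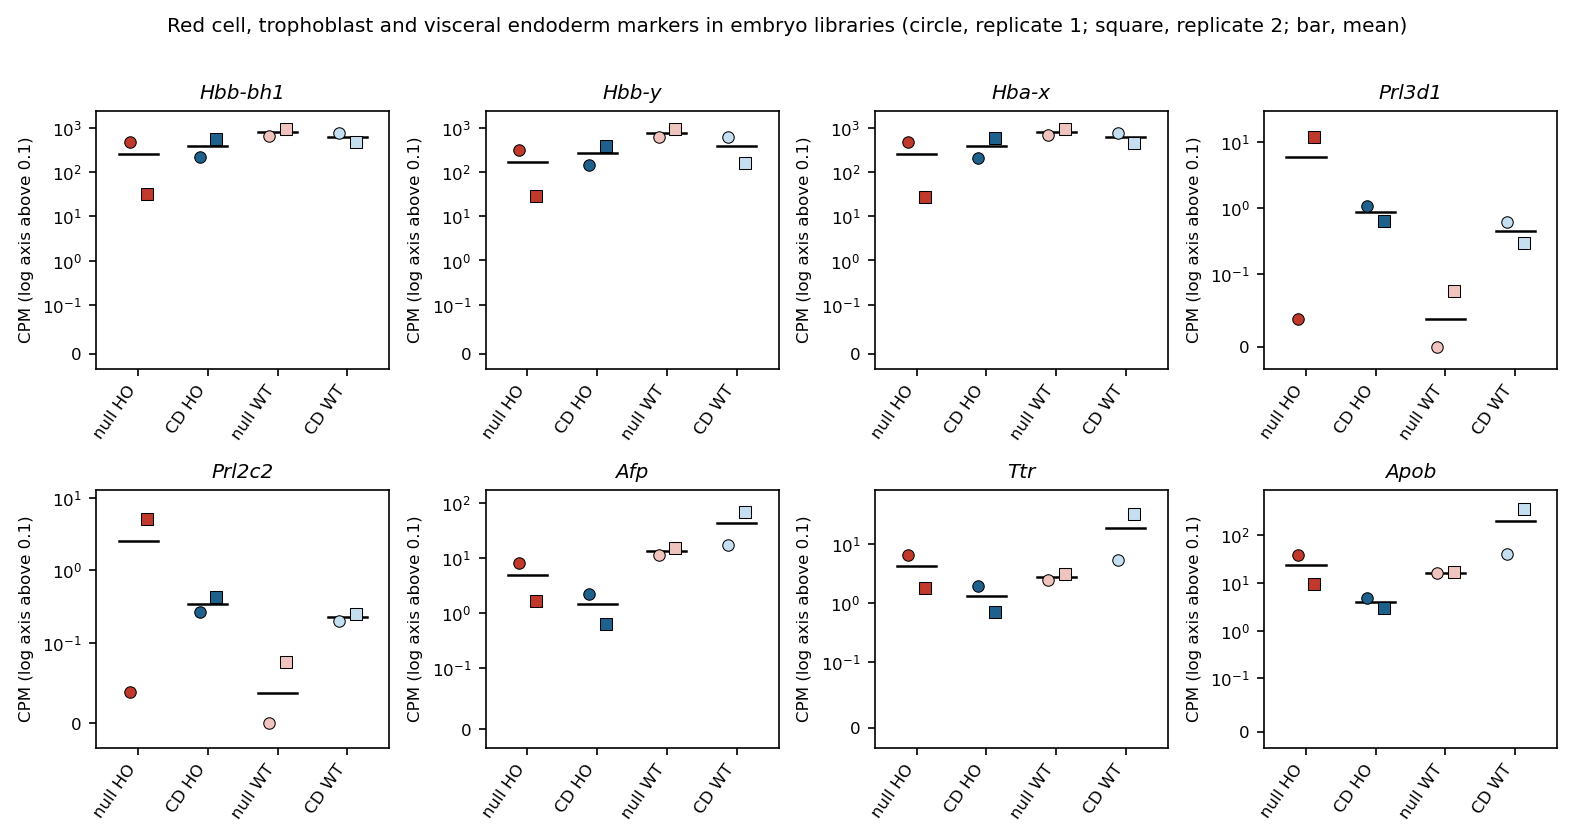
Levels (CPM, linear below 0.1 and log above) of red cell markers (Hbb-bh1, Hbb-y, Hba-x), trophoblast markers (Prl3d1, Prl2c2) and visceral endoderm markers (Afp, Ttr, Apob) in the homozygous and WT embryo libraries, with the mean as a bar. Null HO replicate 2 is lowest for the globins and highest for Prl3d1 (11.9 CPM), and CD WT replicate 2 is highest for Apob (347 CPM).

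Housekeeping and genome lists were close to 0. Ribosomal protein genes (76 tested) had a median of 0.02, with Rpl29 as the 1 called member and 14 at an unadjusted p under 0.05. Rps6 held 894 and 900 CPM in null HO and 803 and 805 CPM in CD HO (0.16, adjusted p = 0.27). Mitochondrially encoded transcripts (15 tested) had a median of 0.07 with 2 at an unadjusted p under 0.05, and mt-Cytb held 2370 and 2421 CPM in null HO and 1969 and 2198 CPM in CD HO (0.20, adjusted p = 0.272). Replication and cell division genes (36 tested) had a median of -0.04 with 8 at an unadjusted p under 0.05, and mismatch repair and recombination genes (31 tested) one of 0.04 with 4. The repair genes bear on H3K36me3, which recruits mismatch repair, and Fanca, of the Fanconi anaemia pathway, held 35 and 34.6 CPM in null HO and 40.4 and 39.2 CPM in CD HO (-0.19, adjusted p = 0.328). By DESeq2 the last 3 lists had 0, 1 and 0 called members. The ribosomal list without null HO replicate 1 had 7 members called higher and 11 lower, the division list 1 and 8, the mitochondrial list 0 and 1 and the repair list 2 and 0. Without replicate 2 the call of 1 ribosomal gene as higher was the only one in these 4 lists.

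Large gene families had medians close to 0 as well, while the imprinted and germline lists had medians above it. Numbered Zfp genes (345 tested), most of them DNA-binding zinc finger factors, had a median of 0.02, with 57 at an unadjusted p under 0.05 and 1 called lower by DESeq2. Against WT, 132 were lower and 39 higher in null HO, and 110 lower and 18 higher in CD HO. Of all genes, 16.5% were lower and 16.2% higher in null HO, and 9.14% lower and 6.92% higher in CD HO. Zfp444 held 12.2 and 10.4 CPM in null HO, 16.6 and 15.8 CPM in CD HO and 24.9 to 27.7 CPM in the WT libraries (-0.52, adjusted p = 0.157). Clustered protocadherins (23 of 57 tested), cell adhesion proteins of neurons, had a median of -0.02 with 1 at an unadjusted p under 0.05, imprinted genes (51 tested) one of 0.12 with 8, and germline genes (12 of 32 tested) one of 0.26 with 0. Ano1, of the imprinted list, held 50.2 and 45.1 CPM in null HO and 30.1 and 35.9 CPM in CD HO, with 12.4 to 16.2 CPM in the WT libraries (0.53, adjusted p = 0.211). DESeq2 called 1 imprinted gene each way and 0 members of the protocadherin and germline lists. In the imprinted list 12 genes without null HO replicate 1 were called higher and 2 lower (median 0.22), 9 Zfp genes higher and 13 lower, 1 germline gene higher and 0 protocadherins. Without replicate 2 the imprinted median was -0.04, and 1 Zfp gene called higher was the only call in these 4 lists.

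The remaining lists were interferon-stimulated genes (27 tested, median 0.06, 4 at an unadjusted p under 0.05), immediate early genes (31, 0.04, 5), cholesterol genes (30, 0.21, 10), epithelial adhesion and keratin genes (29, 0.18, 7) and collagen and matrix genes (57, -0.05, 6). DESeq2 called 1 collagen-list member lower and 0 members of the others. Between the WT groups the medians of these lists, in the same order, were -0.12, -0.14, -0.12, -0.40 and 0.16. Of the 6 sex-linked transcripts, which split the null HO libraries, edgeR called 0, DESeq2 called 4 higher and 4 had an unadjusted p under 0.05. The cholesterol genes differed within the null group, with summed levels of 3427 and 4839 CPM in null HO and 3691 and 3865 CPM in CD HO. Without null HO replicate 1, 15 of 30 were called higher (median 0.39), and without replicate 2, 0 (median -0.07). Calls without replicate 1 were 1 higher and 1 lower for immediate early genes, 2 and 1 for keratin genes, 3 and 2 for collagen genes and 0 for interferon genes, and without replicate 2 these lists had 0. Cdh1, the epithelial cadherin, held 128 and 121 CPM in null HO and 92.2 and 92.9 CPM in CD HO (0.43, adjusted p = 0.272), and 59.5 and 60.9 CPM in null WT and 69.5 and 103 CPM in CD WT. Its groups do not overlap between the homozygotes.

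Yolk sacs gave a second readout of the same genotypes in other libraries. Same-numbered yolk sac and embryo libraries were not all from 1 conceptus, since both CD HO yolk sacs carried Y-linked transcripts and both CD HO embryos did not. Of 17755 genes tested, 12 were called between null HO and CD HO yolk sacs (0.0676%), 9 higher (0.0507%) and 3 lower (0.0169%), and 892 (5.02%) had an unadjusted p under 0.05. Without CD HO replicate 1 the count was 42. Setd2, Rpl29 and Gm10709 were called in both tissues with the same sign, 3 of the 18 embryo calls and 3 of the 12 yolk sac calls. The other yolk sac calls included Lama1, a laminin chain of basement membranes (1.14, adjusted p = 0.0168), which differed by -0.04 between the embryos (adjusted p = 0.872). Rpl29 held 226 and 201 CPM in null HO yolk sacs and 21.7 and 15.6 CPM in CD HO yolk sacs (3.51, SE 0.22, adjusted p = 2.27e-05), with 214 and 212 CPM in the yolk sacs labelled null WT and 227 and 149 CPM in CD WT. Gm10709 held 9.72 and 8.69 CPM in null HO and 0.093 and 0 CPM in CD HO (7.31, adjusted p = 0.000146). Setd2 held 75.6 and 78.9 CPM in null HO and 192 and 194 CPM in CD HO (-1.32, SE 0.094, adjusted p = 6.43e-05). The yolk sacs labelled null WT held 102 and 114 CPM of Setd2, against 178 and 190 CPM in CD WT, so that this label is not borne out by the targeted gene.

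For several embryo calls the yolk sac values lay the same way without passing. Gm8210 held 0.0935 and 0.162 CPM in null HO yolk sacs and 21.3 and 11.5 CPM in CD HO yolk sacs (-6.96, adjusted p = 0.201), and the CD WT yolk sacs split, at 0.0997 and 9.49 CPM. Lsmem2 held 1.22 and 1.4 CPM in null HO and 5.35 and 5.14 CPM in CD HO (adjusted p = 0.456), with 0.598 and 2 CPM in CD WT. The second CD WT yolk sac library is thus the one with high Gm8210, high Lsmem2 and low Rpl29 among the WT yolk sacs. Gm13456 held 17.1 and 15.8 CPM in null HO and 55.1 and 56.8 CPM in CD HO (-1.77, adjusted p = 0.0805). Trp53inp1 held 131 and 98.9 CPM in null HO and 81.6 and 125 CPM in CD HO (0.16, SE 0.22, adjusted p = 0.999), and these groups overlap.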

How the data were processed

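The authors deposited raw counts per gene and FPKM values for 24 libraries in a table for embryos and a table for yolk sacs, and FPKM served only to check the counts (0 values off). Per the submitters' processing notes the tools were fastp 0.22.0, HISAT2 2.2.1, featureCounts 2.0.1 and DESeq2 1.32.0 on mm10. No source used here states the strand setting or how reads with several matches were counted, so near-identical copies and overlapping genes are uncertain. Each table lists 55421 genes, of which 55154 matched GENCODE M21, and 27 symbols turned into dates by a spreadsheet were restored from their identifiers. No column belonged to other samples.

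Genes passing edgeR's filterByExpr (minimum count 10, total 15) were fitted with edgeR 4.0.16 in R 4.3.3 (TMM, quasi-likelihood F test, Benjamini-Hochberg adjustment, threshold 0.05) over the 12 embryo libraries, with 1 coefficient per group and 6 residual degrees of freedom. Yolk sacs were fitted apart. Contrasts were null HO minus CD HO, null WT minus CD WT, and the difference of the homozygous effects. Depth was 23414255 to 27674831 counts per embryo library. Replicates differed beyond counting noise (chi-square per degree of freedom 2.77 to 28.7 over groups), so none was a duplicate. Copies were found with blastn 2.17.0. The fit was tested on simulated data in which every library shared 1 common spread. That test therefore does not cover a group that varies more than most others, as null HO did.

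Named genes were Setd2, up to 14 called protein-coding genes each way by smallest p (1 log2 unit and 1 CPM or more, libraries not overlapping), genes called with the same sign in the WT contrast or in both tissues, up to 4 called members per list or else the 2 of smallest p, and sex-linked transcripts. The other called genes, Greb1, Igf2 and the defining cell type markers were named after their values were seen. Members and lists were chosen with earlier results of these data known. Alternatives were DESeq2 1.42.0, its size factors, library totals, no filter, the compared libraries only, a replicate block, a sex term and, left out in turn, each homozygous library of the tissue compared and, for embryos, each WT library. No HE library was left out. DESeq2 gave no adjusted p for 5961 embryo genes, which were not counted as lost calls. Same-numbered libraries did not deviate together (r = -0.0337 between null HO and CD HO).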

Additional observations from a re-analysis of the deposited data

Results flagged for a closer look

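The difference between the homozygous effects of the lines (null HO minus null WT, less CD HO minus CD WT) passed its own edgeR test for 4 genes, which is why they are listed here. It was -1.08 log2 for Setd2, 3.55 for Rpl29, 6.67 for Gm10709 and -8.18 for Gm8210. For Setd2 the null HO embryos were the low group, and for the other 3 genes the CD HO embryos were the group that stood apart.

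The heterozygous libraries lay outside the main comparison and showed signal of their own for 2 genes. Gm8210 averaged 11.9 CPM in CD HE embryos, above the 0.12 and 0.0833 CPM of CD WT, and Lsmem2 averaged 1.99 CPM in CD HE embryos, above the 0.522 and 0.625 CPM of CD WT.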

How the results depend on the processing

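The counts of genes between null HO and CD HO embryos depended on the filter, the tool and the libraries, while DESeq2's size factors (8 higher, 10 lower) and library totals (7 and 11) left them nearly as they were. Higher and lower genes numbered 212 and 317 with no filter, 31 and 50 by DESeq2, and 4 and 4 with the compared libraries only. With 1 library left out, higher genes ranged over 4 to 582 and lower genes over 6 to 867. Leaving out WT libraries was chosen after seeing the data, and without CD WT replicate 1 or 2 there were 17 higher, with 22 and 23 lower. Between WT embryos 6 genes became 1293 with no filter, 382 by DESeq2, 12 with the compared libraries only and 3 with a sex term, and 2 to 1623 with 1 library left out. For the difference of homozygous effects 4 genes became 949 with no filter, 192 by DESeq2 and 2 with a sex term, and 3 to 1048 with 1 library left out. In yolk sacs 12 genes became 221 with no filter, 56 by DESeq2 and 19 with the compared libraries only, and 8 to 42 with 1 library left out. Among these left-out libraries the 42 came without CD HO replicate 1. The cause was not tested.

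Same-numbered libraries share only a number, and with the replicate block 7 genes were higher and 8 lower between null HO and CD HO embryos, 7 were called between WT embryos, 3 in the difference of effects and 11 in yolk sacs. Of the 18 called genes 14 were called under the block. The sex term gave 6 higher and 14 lower genes, lost 6 of the 18 calls and gained 8.

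Only the named genes were looked at for a change of sign. With 1 library left out the sign turned for Hbb-bt (-2.39 to 2.25, from -1.40), Hba-a2 (-3.29 to 0.05, from -0.91) and Mrc1 (-0.05 to 1.82, from 1.16). The sign also turned for Cyp11a1 (-1.75 to 5.03, from 4.03), Prl2c2 (-3.01 to 3.87, from 2.87) and Greb1 (-0.07 to 0.04, from -0.01). Among defining markers it turned for Hbb-y (-3.21 to 0.22, from -0.65), Hbb-bh1 (-3.58 to 0.29, from -0.61), Hba-x (-3.84 to 0.26, from -0.66), Prl3d1 (-4.32 to 3.77, from 2.77), Csf1r (-0.47 to 1.13, from 0.56), Kdr (-0.29 to 0.54, from 0.18), Tnnt2 (-0.25 to 0.42, from 0.12), Pecam1 (-0.02 to 0.50, from 0.26), Foxd3 (-1.01 to 0.17, from -0.30), Stmn2 (-0.39 to 0.08, from -0.17), Cdh5 (-0.23 to 0.26, from 0.04), Sparc (-0.07 to 0.13, from 0.04), Lama1 (-0.15 to 0.05, from -0.04), Thbd (-0.02 to 0.19, from 0.08) and Myl7 (-0.29 to 0.19, from -0.03, and 0.10 with the sex term). None of these genes was called with all libraries. With 2 libraries per group, a difference under the half-width of the unadjusted interval, 0.338 log2 for the median gene, was not detectable. The adjusted threshold for a call also leaves out some larger differences.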
